A study of Mus musculus with 9 samples.

Results

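The circadian clock genes described here are Arntl (also called Bmal1), Clock, Npas2, the Rev-erb receptor genes Nr1d1 and Nr1d2, Per1, Per3, Cry1, Dbp and Bhlhe41. They were chosen by name, as the rows of the expression table that carry exactly 1 of these gene symbols, and all 10 were found among 22180 genes measured, each with 1 probe set. Each of 9 mice, 3 in each of 3 groups, had its liver RNA read on its own Affymetrix array. Double KO mice lacked the nuclear receptor corepressors SMRT and NCoR in the liver, SMRT KO mice lacked SMRT alone in the liver, and control mice carried floxed alleles of both genes (SMRT and NCoR fl/fl) with no deletion. All 9 mice were euthyroid females of 7 to 9 weeks on a mixed 129SV/B6 background, kept on standard chow with free access to food and a cycle of 12 hours of light and 12 of dark. The driver of the deletion, the NCoR alleles of the SMRT KO mice and the hour at which each mouse was killed are not given in the sources used here. No group lacked NCoR alone, so its loss is seen only on top of SMRT loss, as double KO against SMRT KO. The transcripts of the deleted genes were not analysed here, so the genotypes rest on the labels.

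The clock is a feedback loop in nearly every cell. The proteins of Arntl and Clock (or its relative Npas2) pair up and activate genes through a DNA element called the E-box, among them the Per and Cry genes, whose products then shut the pair off, and the Rev-erb genes Nr1d1 and Nr1d2. Rev-erb proteins are nuclear receptors that bind a Rev-erb/ROR element and recruit NCoR and its partner Hdac3 to silence Arntl, Clock, Npas2 and Cry1, so that Arntl and the Rev-erbs normally peak at opposite times of day. In liver the same receptors restrain genes of lipid metabolism. The study addresses what each corepressor does in liver. For the clock genes, loss of corepressors could release Rev-erb targets, while mice killed at different clock phases would also differ in these genes, and with a single collection per mouse and no hour given these possibilities cannot be told apart.

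The promoter stretches below are shown because they hold the letters of elements that proteins of this loop, or Dbp, are known to bind. All 10 genes had at least 1 RefSeq promoter window (GRCm38.p6, 300 bases, from 250 before to 50 after the transcript start), 14 windows in all, and both strands were searched. The Rev-erb/ROR element was found in 1 of the 10 genes, Arntl, against 0.384% of all 32851 mouse windows. The E-box CACGTG was found in Per1, Cry1 and Bhlhe41, against 7.15% of windows. Per3 holds the D-box TTATGTAA, the element bound by Dbp, at 2 places, against 0.938% of windows that hold any. The cyclic AMP element TGACGTCA was found in 0 of the 10 genes, against 1.79% of windows. The remaining genes hold none of these letters in these windows, apart from the short run AGGTCA, which lies inside the Rev-erb/ROR element and occurs in 4 of the 10 genes and 16.3% of windows. Matches are counted here per gene, while the percentages are per window. Clock has 3 windows and Arntl and Per1 have 2 each, so the counts and percentages are not in the same unit. A match is a description of the letters and was not tested as a binding site. Each sequence is written 5′ to 3′ on the gene's strand, with the matched elements in capitals.
Arntl, chr7:113207261-113207560, plus strand, Rev-erb/ROR element in capitals: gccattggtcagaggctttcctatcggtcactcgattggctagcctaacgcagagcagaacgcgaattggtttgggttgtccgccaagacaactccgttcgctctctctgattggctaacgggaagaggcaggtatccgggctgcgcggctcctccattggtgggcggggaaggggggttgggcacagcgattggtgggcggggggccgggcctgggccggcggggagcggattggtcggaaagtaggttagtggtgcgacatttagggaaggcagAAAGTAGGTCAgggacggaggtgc
Per1, chr11:69098743-69098828, plus strand, E-box in capitals: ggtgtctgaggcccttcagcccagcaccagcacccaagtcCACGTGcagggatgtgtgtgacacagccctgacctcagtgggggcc
Cry1, chr10:85185079-85185144, minus strand, E-box in capitals: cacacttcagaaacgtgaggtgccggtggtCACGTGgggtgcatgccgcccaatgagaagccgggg
Bhlhe41, chr6:145865538-145865603, minus strand, E-box in capitals: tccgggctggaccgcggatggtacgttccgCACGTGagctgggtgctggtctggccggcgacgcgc
Per3, chr4:151044796-151044890, minus strand, D-boxes in capitals: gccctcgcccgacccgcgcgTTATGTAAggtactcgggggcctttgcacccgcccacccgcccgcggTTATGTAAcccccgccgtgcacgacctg

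Values are log2 expression as the authors deposited it, so that a difference of 1 is 2-fold, and folds are powers of 2 of differences between group means. Every p-value comes from 1 limma fit over all 22180 genes and all 9 arrays, adjusted by Benjamini-Hochberg within each comparison, and a gene passed at an adjusted p under 0.05. Nothing says whether littermates or cages were shared, so p-values measure the spread between these mice. The correlation of arrays was 0.987 to 0.992 inside a group and 0.983 to 0.989 across groups. The summed level of 8 hepatocyte markers (log2) was 15.82 to 15.90 in double KO, 15.93 to 16.03 in SMRT KO and 15.96 to 16.01 in control livers, and 1 of the 8, Serpina1a, fell in double KO against control livers (-0.47, limma adjusted p = 0.0251). That of 10 Kupffer cell and macrophage markers was 12.03 to 12.26 in double KO, 12.29 to 12.50 in SMRT KO and 12.02 to 12.26 in control livers. That of 7 stellate cell markers was 10.64 to 11.005 in double KO, 10.87 to 11.11 in SMRT KO and 10.94 to 11.07 in control livers, and 1 of the 7, the retinol esterase gene Lrat, fell in double KO livers (-1.80 against control, adjusted p = 0.000397). In bulk liver, fewer cells of a type and less RNA per cell cannot be told apart. Across olfactory and vomeronasal receptor genes, which liver is not known to use, array medians were 3.73 to 4.14 and the 95th percentile reached 6.22 on the highest array. Npas2, at 5.68 to 6.27, and Bhlhe41, at 5.80 to 6.76, overlapped that upper end and are not shown to be well above background. Single values of Arntl (6.07 in control replicate 1) and Elovl3 (5.94 in SMRT KO replicate 3) also lay under 6.22.

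In double KO against SMRT KO livers Per1, the period gene that also answers to glucocorticoids and cyclic AMP, fell 1.72-fold, and the other 9 clock genes did not pass. Per1 was 8.64, 8.61 and 8.84 in the double KO livers, against 9.54, 9.36 and 9.55 in the SMRT KO livers. All 3 double KO livers lay below all 3 SMRT KO livers. On the log2 scale this was -0.78 (SE 0.134, 95% interval -1.08 to -0.48, limma adjusted p = 0.0277). Against 1 of 10 clock genes called lower, 0.437% of all genes were called lower in this comparison, and 1.19% in either direction. The call was lost without any 1 of the 6 compared mice or without control replicate 3, with adjusted p up to 0.125 without double KO replicate 2, while the log2 fold change stayed between -0.85 and -0.74 over 19 alternatives. The 10 macrophage markers also all had lower means in double KO than in SMRT KO livers (median log2 fold change -0.23, 0 of 10 passing). All 10 had higher means in SMRT KO than in control livers (median 0.27), and their median in double KO against control livers was 0.01. The hepatocyte sum given above was lower in all 3 double KO livers than in all 3 SMRT KO livers. The part of these markers in the Per1 result was not tested.

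Against control livers Per1 did not pass in double KO livers. The control livers held 9.63, 9.07 and 9.31, and all 3 double KO livers lay below them. On the log2 scale the difference was -0.64 (SE 0.134, 95% interval -0.94 to -0.34, limma adjusted p = 0.0763). It passed without control replicate 2 (adjusted p = 0.0322), with array weights (0.0328) and among genes with a mean of at least 6 (0.0461), and the adjusted p reached 0.273 over the 19 alternatives. The summed macrophage markers of double KO and control livers overlapped, while the hepatocyte sum given above was lower in all 3 double KO livers and that of 4 cholangiocyte markers higher (8.49 to 8.62 in double KO, against 8.23 to 8.45 in control livers). Their part in the Per1 difference was not tested. In this comparison 0 of 10 clock genes passed, against 0.843% of all genes (0.523% higher and 0.320% lower), and in SMRT KO against control 0 of 10, against 0.00451%. At an unadjusted p under 0.05 there were 4 clock genes in double KO against control (Per1, Arntl, Npas2 and Bhlhe41; 10.8% of all genes), the same 4 in double KO against SMRT KO (10.5%), and 0 in SMRT KO against control (1331 of the 22180 genes).

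**Figure D1:**
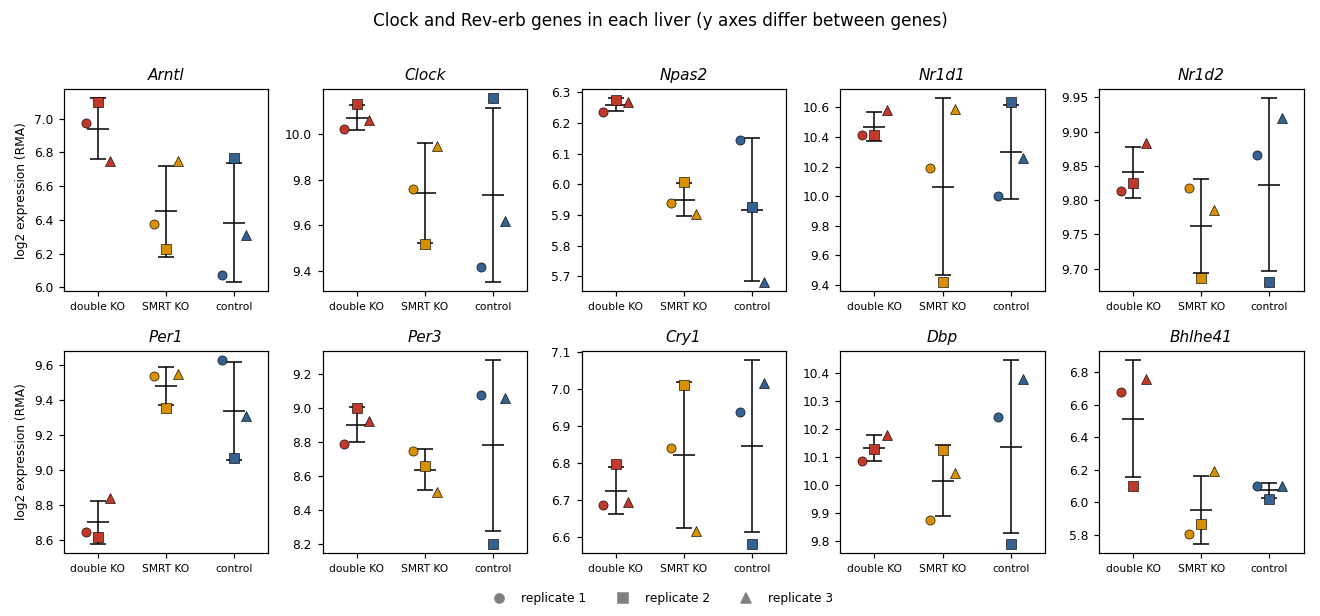
Log2 expression of each clock gene in each liver. Points are mice, with the marker shape giving the replicate number, and black bars are the group mean and SD (n = 3); y axes differ between genes. The 3 double KO livers sit at 8.61 to 8.84 for Per1, below the other 6, which sit at 9.07 to 9.63.

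The activators had higher means in double KO livers, without passing the test. Arntl, whose protein pairs with that of Clock or Npas2, was 6.98, 7.10 and 6.75 in double KO livers, 6.38, 6.23 and 6.75 in SMRT KO livers, and 6.07, 6.77 and 6.31 in control livers. The lowest double KO liver (6.7463) and the highest SMRT KO liver (6.7458) were all but equal, so these groups barely separated. Control replicate 2 lay inside the double KO range. The log2 fold change of Arntl was 0.56 (standard error 0.188, 95% interval 0.13 to 0.98, limma adjusted p = 0.296) against control and 0.49 (95% interval 0.07 to 0.91, adjusted p = 0.385) against SMRT KO livers. Between SMRT KO and control livers it was 0.07, with a 95% interval of -0.36 to 0.49.

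Npas2, which can replace Clock as Arntl's partner, had the tightest double KO values of the 10 genes. They were 6.23, 6.27 and 6.27, against 5.94, 6.01 and 5.90 in SMRT KO and 6.15, 5.93 and 5.68 in control livers. All 3 double KO livers lay above the other 6 livers, close to the 95th percentile of the receptor genes named above. Its log2 fold change was 0.34 against control (standard error 0.105, 95% interval 0.11 to 0.58, limma adjusted p = 0.237) and 0.31 against SMRT KO livers (95% interval 0.07 to 0.54, adjusted p = 0.298), neither of which passed.

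Clock, the other subunit, was 10.02, 10.13 and 10.07 in double KO livers, 9.76, 9.52 and 9.95 in SMRT KO livers, and 9.42, 10.16 and 9.62 in control livers. The double KO values lay above all SMRT KO values, and 1 control liver, replicate 2, was the highest of the 9. It had a log2 fold change of 0.34 against control (95% interval -0.05 to 0.74, limma adjusted p = 0.543) and 0.33 against SMRT KO livers (95% interval -0.06 to 0.73, adjusted p = 0.584). Without control replicate 2 the log2 fold changes against control were 0.75 for Arntl (adjusted p = 0.106) and 0.55 for Clock (adjusted p = 0.114), both larger than with all mice and still short of the threshold.

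The Rev-erb receptors themselves differed little between groups relative to their spread. Nr1d1, which encodes Rev-erb alpha, was 10.41, 10.41 and 10.58 in double KO livers, 10.19, 9.42 and 10.59 in SMRT KO livers, and 9.999, 10.63 and 10.26 in control livers. The groups overlapped, and its 1.22 range over the 9 mice, from SMRT KO replicate 2 to control replicate 2, was the widest of the 10 genes. Its log2 fold change against control was 0.17 in double KO (95% interval -0.42 to 0.76, limma adjusted p = 0.879) and -0.23 in SMRT KO livers (95% interval -0.82 to 0.36, adjusted p = 0.94), the first reaching past 1.5-fold upward and the second past it downward. Nr1d2, which encodes Rev-erb beta, had a range of 0.24 over all 9 mice. Its log2 fold change in double KO against control livers was 0.02, with a 95% interval of -0.15 to 0.19 (adjusted p = 0.965), so that a 1.5-fold change lay outside the interval.

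Cry1, a repressor gene with both an E-box input and Rev-erb repression, had overlapping groups. It lay at 6.69 to 6.80 in double KO livers, 6.62 to 7.01 in SMRT KO livers and 6.58 to 7.02 in control livers. The log2 fold change in double KO against control livers was -0.12 (95% interval -0.41 to 0.17, limma adjusted p = 0.818), on the other side of 0 from those of Arntl, Npas2 and Clock. In SMRT KO against control livers it was -0.02 (adjusted p = 0.992), and in double KO against SMRT KO livers -0.10 (adjusted p = 0.879).

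The output genes Dbp and Per3 overlapped between double KO and control livers, with the controls widely spread. Dbp, a transcription factor driven by the E-box that passes the rhythm to liver enzymes, was 10.09 to 10.18 in double KO, 9.88 to 10.12 in SMRT KO and 9.79 to 10.38 in control livers. The log2 fold change in double KO against control livers was -0.01 (95% interval -0.32 to 0.30, limma adjusted p = 0.995). Per3, the period gene with D-boxes in its promoter, was 8.79 to 9.00 in double KO, 8.50 to 8.75 in SMRT KO and 8.20 to 9.08 in control livers. The double KO livers lay above the SMRT KO livers, and the log2 fold change between them was 0.27 (95% interval -0.20 to 0.73, adjusted p = 0.753).

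Bhlhe41, a repressor that competes for the E-box, was 6.68, 6.10 and 6.76 in double KO livers, 5.80, 5.86 and 6.19 in SMRT KO livers, and 6.10, 6.02 and 6.10 in control livers. Double KO replicates 1 and 3 were above all other livers and replicate 2 was not. Its log2 fold change was 0.44 against control (95% interval 0.07 to 0.82, limma adjusted p = 0.37) and 0.56 against SMRT KO livers (95% interval 0.19 to 0.94, adjusted p = 0.214), and the second passed without double KO replicate 2 (0.77, adjusted p = 0.0399). Double KO replicate 2 and control replicates 1 and 3 held the same value to 6 decimals, as happens in 3 or more arrays for 24.3% of all probe sets.

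**Figure D2:**
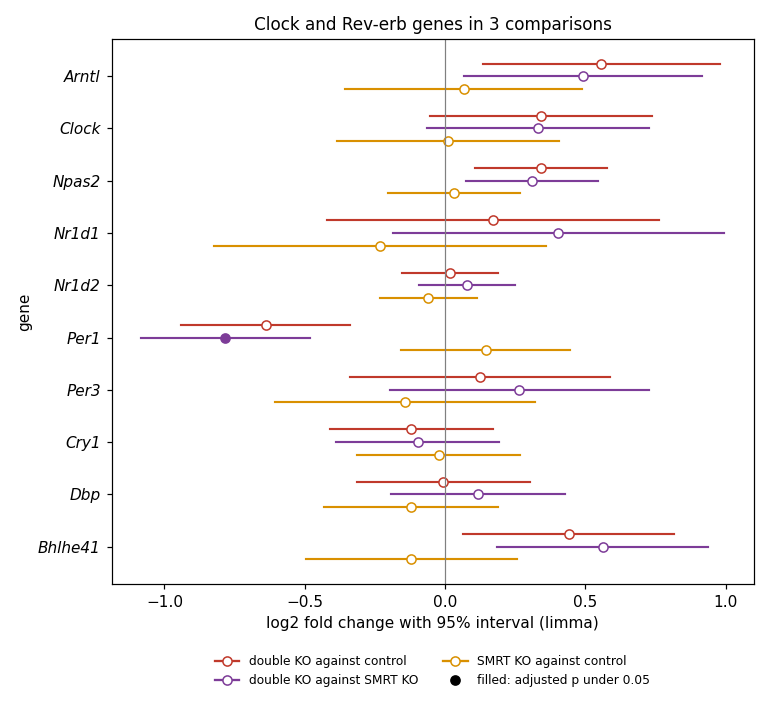
Log2 fold change of each clock gene in the 3 comparisons, with 95% intervals from limma. Filled points passed an adjusted p of 0.05; 1 of the 30 did, Per1 in double KO against SMRT KO livers at -0.78, while Nr1d2 has the narrowest intervals.

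Counted over the 10 genes, the 3 livers of each group did not overlap for 2 genes in double KO against control (Npas2 higher, Per1 lower), where 15.0% of all genes did not overlap (7.73% higher and 7.25% lower). In double KO against SMRT KO livers 5 genes did not overlap (Arntl, Clock, Npas2 and Per3 higher, Per1 lower), against 13.8% of all genes (7.54% higher and 6.21% lower). Arntl is counted there on nearest values of 6.7463 and 6.7458, which are all but equal. In SMRT KO against control livers 0 genes did not overlap, against 8.16% (3.80% higher and 4.36% lower). The median log2 fold change of the 10 genes was 0.15 in double KO against control, 0.29 in double KO against SMRT KO and -0.04 in SMRT KO against control, where the medians of all genes lay within 0.01 of 0. The comparisons share groups, so these values are not separate evidence. In mean level, SMRT KO livers lay between double KO and control livers for Arntl, Clock, Npas2 and Cry1, and were the lowest group for Nr1d1, Nr1d2, Per3, Dbp and Bhlhe41. For Arntl, Clock, Npas2 and Cry1 the log2 fold changes of SMRT KO against control were 0.07, 0.01, 0.03 and -0.02, and none passed.

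The spread among mice was itself large for these genes. The within-group SD exceeded the median of all genes, 0.117, for 9 of the 10 genes, with Nr1d1 at 0.394 above 98.7% of genes and Per3 at 0.304 above 96.7%, while Nr1d2 at 0.0855 was below the median. The SD among double KO mice was smaller than among controls for 9 of the 10 genes, Bhlhe41 being the exception, against 53.7% of all genes. Of 21 other clock genes it was smaller for 13 (61.9%), with a median SD of 0.109 in double KO, 0.0816 in SMRT KO and 0.110 in control livers. The median SD of the 10 genes was 0.0807 in double KO, 0.162 in SMRT KO and 0.295 in control livers, where over all genes it was 0.0898, 0.106 and 0.0986. This difference in spread was not tested.

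Control replicate 2 set much of the spread among controls. It was the highest or lowest of all 9 mice for 6 of the 10 genes, where it held that place for 21.4% of all genes and the 9 mice for 18.5% to 25.6% each. Control replicates 1 and 3 each held that place for 4 of the 10 genes, against 23.6% and 19.4% of all genes. Relative to the mean of control replicates 1 and 3, control replicate 2 was higher in Clock (0.64), Arntl (0.58) and Nr1d1 (0.50). It was lower in Per3 (-0.87), Dbp (-0.52), Per1 (-0.40), Cry1 (-0.40) and Nr1d2 (-0.21). These are log2 differences, and the median absolute difference over all genes was 0.0978. Of the 10 genes 9, and of 21 other clock genes 18 (12 below and 6 above), lay outside the span of control replicates 1 and 3 in this mouse, as did 63.8% of all genes. Bhlhe41 is among the 9 at -0.08 only because control replicates 1 and 3 held the same value. The largest differences of the 21 other clock genes, named after their values were seen, were those of Ciart, a repressor of the Clock pair (-1.42), Usp2, a rhythmic ubiquitin protease (-1.38), and Tef, a relative of Dbp (-0.59). Per1 and Arntl against control in double KO livers, -0.64 and 0.56 with this mouse, were -0.77 and 0.75 without it. Clock went from 0.34 to 0.55, Nr1d1 from 0.17 to 0.34 and Cry1 from -0.12 to -0.25. Dbp went from -0.01 to -0.18, Per3 from 0.12 to -0.17 and Nr1d2 from 0.02 to -0.05. Npas2 (0.34 and 0.35) and Bhlhe41 (0.44 and 0.41) moved less. In SMRT KO against control livers Arntl went from 0.07 to 0.26, Clock from 0.01 to 0.22 and Per3 from -0.14 to -0.43.

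**Figure D3:**
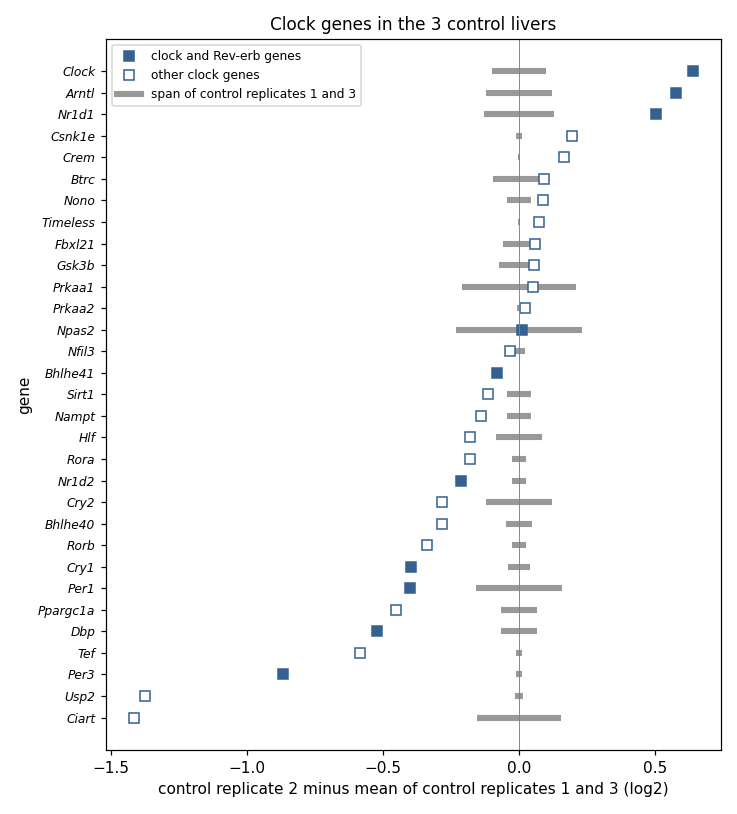
Log2 expression in control replicate 2 minus the mean of control replicates 1 and 3 (squares), for the 10 clock genes (filled) and 21 other clock genes (open). Grey bars span control replicates 1 and 3 around their mean; Clock, Arntl and Nr1d1 lie above 0.5 and Per3, Usp2 and Ciart below -0.8.

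Within groups, mice with more Arntl had more Clock, except that double KO replicate 1 had more Arntl and less Clock than double KO replicate 3. After each group's mean was removed, Arntl and Clock had a Pearson r of 0.92 and a Spearman rho of 0.87 over 9 mice (exact permutation of mice within groups, two-sided, p = 0.0139 and 0.0324, adjusted over 9 relations p = 0.125 and 0.292). Without control replicate 2 and SMRT KO replicate 3, the mice farthest from the median of Arntl, r was 0.68. Nr1d1 also went with Arntl (r = 0.74, rho = 0.67, exact permutation p = 0.0602 and 0.13, adjusted 0.208 and 0.354), and this rested on those mice, since r was 0.29 without them. Per3 (r = -0.76, rho = -0.68, exact permutation p = 0.0694 and 0.157, adjusted 0.208 and 0.354) and Cry1 (r = -0.78, rho = -0.72, exact permutation p = 0.0972 and 0.134, adjusted 0.219 and 0.354) went against it, and without those mice their r was 0.22 and 0.24. Per1 had r = -0.62 (rho = -0.48, exact permutation p = 0.227 and 0.315, adjusted 0.375 and 0.405) and -0.67 without them, and Dbp -0.62 (rho = -0.60, exact permutation p = 0.25 and 0.236, adjusted 0.375 and 0.361) and -0.19. Nr1d2 (r = -0.47, rho = -0.40), Npas2 (r = -0.34, rho = -0.55) and Bhlhe41 (r = -0.09, rho = -0.03) had adjusted exact permutation p (for r and then rho) of 0.518 and 0.495, of 0.797 and 0.361, and of 0.824 and 0.954. None of the 9 relations passed after adjustment.

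**Figure D4:**
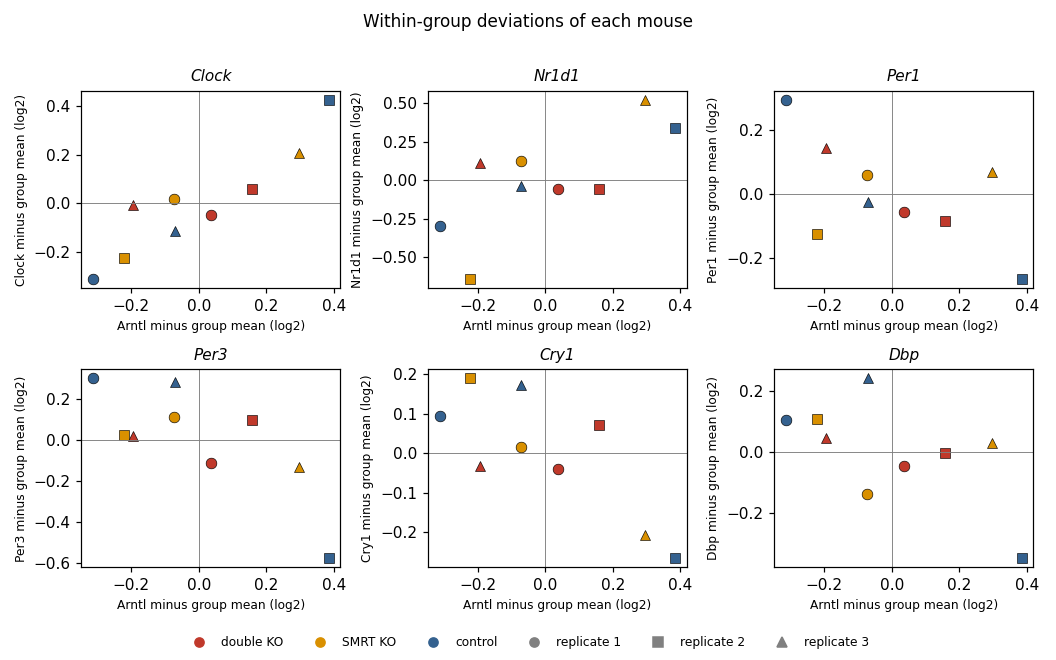
Deviation of each mouse from its group mean for Arntl (x axis) and 6 other clock genes (y axes), in log2 units; colours are groups and marker shapes are replicates. Clock has r = 0.92 with Arntl over the 9 mice and 0.68 without control replicate 2 and SMRT KO replicate 3. The slope of Per3 and Cry1 rests on those mice.

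Among 12921 other genes with a mean of at least 6, the 5 whose values over the 9 arrays were most like those of Arntl were Tfcp2 (r = 0.96), Nek4 (0.96), Leprotl1 (0.96), Pde9a (0.96) and Mpzl1 (0.95), and Clock ranked 11th from the top at 0.94. The 5 most opposite were Zfp148 (r = -0.94), Ptprd (-0.94), Gm13363 (-0.94), Marveld1 (-0.92) and Nr1i3 (-0.92), with Per1 ranking 49th from the bottom at -0.82. For Nr1d1 the most similar were Vps36 (0.98), Scap (0.97), Anapc1 (0.96), Cables1 (0.96) and Gm9895 (0.96), and the most opposite Ccdc92 (-0.98), Col11a2 (-0.97), Mypop (-0.96), Max (-0.94) and Ager (-0.94). These correlations describe 9 arrays that share the group structure and were picked as extremes.

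Of the rest of the clock list 0 of 21 measured genes passed in each of the 3 comparisons. Of all genes 0.843% passed in double KO against control, 0.00451% in SMRT KO against control and 1.19% in double KO against SMRT KO. With shares this low, 0 of 21 does not show that the list was unchanged. In double KO against control livers its median log2 fold change was -0.07, with 6 genes above 0 and 15 below and 2 at an unadjusted p under 0.05. Of all genes 10789 of 22180 lay below 0 and 10.8% were at an unadjusted p under 0.05, a share close to 2 of 21. In double KO against SMRT KO livers the median was -0.08, with 5 genes above 0 and 16 below. There 3 of 21 were at an unadjusted p under 0.05 (10.5% of all genes). The livers did not overlap for 1 gene that was higher and 4 that were lower (7.54% and 6.21% of all genes). Ppargc1a, a coactivator that raises Arntl transcription and gluconeogenesis, had the largest difference, -0.94 against control (standard error 0.244, limma adjusted p = 0.159) and -1.07 against SMRT KO livers (adjusted p = 0.0889), and both passed without SMRT KO replicate 2 (0.0407 and 0.016). Usp2 had -0.36 (adjusted p = 0.783) in double KO and -0.23 (adjusted p = 0.957) in SMRT KO livers against control. Fbxl21, which tags Cry proteins, had 0.35 in double KO against SMRT KO (adjusted p = 0.485), and Csnk1e, a kinase of Per proteins, 0.17 in SMRT KO against control livers (adjusted p = 0.856). Nfil3, another Rev-erb target, had 0.02 in double KO against control livers (adjusted p = 0.959) and was chosen after its values were seen.

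Per1 fell in double KO against SMRT KO livers together with Tsc22d3, a glucocorticoid-induced leucine zipper gene. Tsc22d3 was the only other one of 10 glucocorticoid-responsive genes to pass there. In double KO against control livers Tsc22d3 alone passed, and Per1 did not. Tsc22d3 was 8.27, 8.20 and 8.07 in double KO livers, 9.11, 8.82 and 9.09 in SMRT KO livers, and 9.06, 8.88 and 8.81 in control livers. All 3 double KO livers lay below the other 6. It fell by 0.83 on the log2 scale against SMRT KO (limma adjusted p = 0.0061) and by 0.74 against control livers (adjusted p = 0.0129), and the call against control was lost without double KO replicate 2 or 3 (up to 0.067). The macrophage markers and the hepatocyte sum named beside Per1 were lower in the same comparison, double KO against SMRT KO, and their part was not tested. Fkbp5, a chaperone induced by the same hormone, had -0.91 (adjusted p = 0.27) and -1.01 (adjusted p = 0.22), and did not pass. All 10 genes of this list, Per1 included, had lower means in double KO than in SMRT KO livers (median -0.42), and 7 of 10 in double KO than in control livers (median -0.20), where 10950 and 10789 of the 22180 genes had lower means. Of all genes 0.437% and 0.320% were called lower in these comparisons. The list was chosen with earlier results of these data known, so these counts describe it and do not test it. Mt1 and Mt2, metallothioneins, had 0.65 and 0.45 in SMRT KO against control livers (adjusted p = 0.839 and 0.906).

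Of 10 metabolic genes that Rev-erb receptors are linked to in liver, 4 rose and 0 fell in double KO against control livers, where 0.523% of all genes rose, with a median log2 fold change of 0.52. This list was chosen with earlier results of these data known, so its counts beside all genes describe the list and do not test it. Lpin1, a phosphatidate phosphatase gene of the same list named after its values were seen, was lower in all 3 double KO livers than in the other 6 and did not pass (-1.19 against control, limma adjusted p = 0.13, and -1.02 against SMRT KO livers, adjusted p = 0.184). Insig2, which holds back sterol-driven lipid synthesis, was 10.47, 10.42 and 10.58 in double KO livers, 9.93, 9.46 and 9.70 in SMRT KO livers, and 9.37, 9.82 and 9.65 in control livers. It rose 1.84-fold against control (standard error 0.138 for a log2 fold change of 0.88, limma adjusted p = 0.0225) and 1.74-fold against SMRT KO livers (adjusted p = 0.0289). Those calls were lost with the replicate number as a block and without any double KO mouse or control replicate 3, the first also without control replicate 1 and the second without SMRT KO replicate 2 or 3 and with only the compared groups in the fit, with adjusted p up to 0.092 and 0.115. Lpl, Cd36 and Plin2, genes of fatty acid uptake and storage that other nuclear receptors also control, were the other 3 that rose, by 1.80, 1.31 and 0.64 on the log2 scale (adjusted p = 0.0108, 0.00309 and 0.016). The call of Lpl was lost without double KO replicate 2 or 3, and that of Plin2 without control replicate 1 or 3 or double KO replicate 1 or 3.

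In double KO against SMRT KO livers 4 of these 10 genes rose as well, where 0.748% of all genes did: Insig2, Lpl (log2 fold change 1.62, limma adjusted p = 0.014), Plin2 (0.88, adjusted p = 0.00323) and Elovl3. This count too describes a list chosen with earlier results known. Elovl3, a rhythmic fatty acid elongase, was 9.56, 9.25 and 10.75 in double KO livers, 7.98, 6.96 and 5.94 in SMRT KO livers, and 7.55, 8.83 and 8.77 in control livers. The double KO livers were the highest and the groups did not overlap with either of the others. Its log2 fold change was 2.89 against SMRT KO (standard error 0.562, adjusted p = 0.0473) and 1.47 against control livers (adjusted p = 0.376), and the first call was lost without 7 of the 9 mice, SMRT KO replicate 1 and control replicate 1 being the exceptions, and with the replicate number as a block or only the compared groups in the fit. The call of Lpl was lost without SMRT KO replicate 1 or double KO replicate 2 or 3 (up to 0.0785) and with only the compared groups in the fit, while those of Plin2 here and of Cd36 against control held in all 19 alternatives. In SMRT KO against control livers 0 of the 10 passed, the largest differences being those of Elovl3 (-1.42, adjusted p = 0.826) and Cd36 (0.65, adjusted p = 0.334), and Cd36 passed there in 1 of 19 alternatives, without control replicate 1 (adjusted p = 0.0342).

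**Figure D5:**
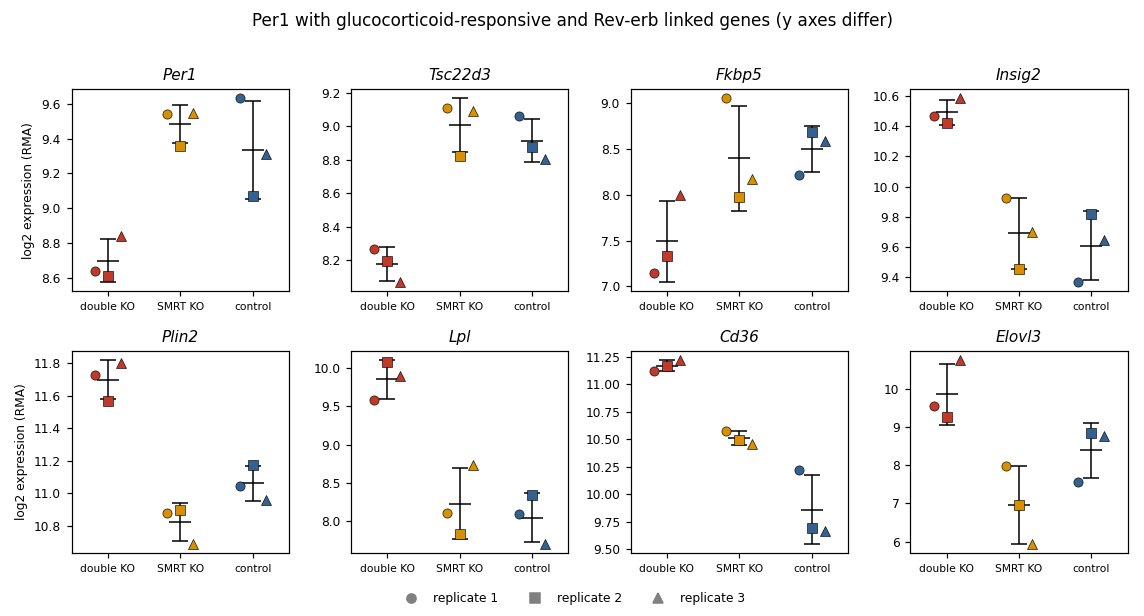
Per1 beside Tsc22d3 and Fkbp5, which answer to glucocorticoids, and 5 metabolic genes linked to Rev-erb, in log2 expression per liver (points, shapes by replicate; bars, group mean and SD, n = 3; y axes differ). The double KO livers are lowest for Per1 and Tsc22d3 and highest for Insig2, Plin2, Lpl, Cd36 and Elovl3.

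The remaining lists held no gene that passed in any comparison. Of 6 measured genes that body-wide signals keep rhythmic in liver, Hspa1b, a heat shock protein, had 0.82 (limma adjusted p = 0.553) and Noct, which encodes nocturnin, -0.57 (adjusted p = 0.555) in double KO against control livers, and Hsph1 had 0.08 in SMRT KO against control livers (adjusted p = 0.982). Of 9 measured targets of Dbp and its relatives, Cyp2b10, a drug-metabolising cytochrome P450, had 1.52 (adjusted p = 0.185) and Nr1i3, the receptor CAR, -0.44 (adjusted p = 0.362) in double KO against control livers. Cyp7a1, the rate-limiting enzyme of bile acid synthesis, had 0.62 in double KO against SMRT KO livers (adjusted p = 0.597). Of 4 measured corepressor partners, Tbl1xr1 had 0.46 in double KO against control (adjusted p = 0.25) and Tbl1x 0.24 in SMRT KO against control livers (adjusted p = 0.633), while Hdac3, named after its values were seen, had 0.02 in double KO against control (adjusted p = 0.963).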

How the data were processed

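Liver RNA of 9 mice was hybridised to 1 array each, from 200 ng of total RNA per liver, per the labels' protocols. The deposited values are log2 expression per probe set, and the submitters' processing notes name RMA (no version is given there), which scales all arrays to one distribution and would hide a shift of all genes alike. Of 41345 probe sets, 23521 had exactly 1 gene symbol in the platform annotation. The probe set of highest mean over the arrays was kept per gene, leaving 22180 genes, unfiltered, with 0 columns left unmapped. Arrays carry no read depth, and their number limits the precision.

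Groups came from the sample titles. All 9 arrays entered one linear model without a block (limma 3.58.1 under R 4.3.3, moderated by eBayes), with 6 residual degrees of freedom, and tested on simulated data. With 3 mice against 3 an exact permutation test cannot go below p = 0.1. The members, lists and tests were chosen with earlier results of these data known. Named genes were all members, from each list the called genes and the 2 largest differences per comparison, and the 5 genes most like and most opposite to Arntl and to Nr1d1. Other genes are marked where named. Some listed genes were not analysed here. Same-numbered mice deviated together at r of -0.08 to 0.12, so the numbers were not taken as pairs.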

Additional observations from a re-analysis of the deposited data

How the results depend on the processing

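Each result was recomputed under 19 alternatives, 9 of which left out 1 mouse. Of 30 log2 fold changes of the clock genes, 21 kept their sign in every alternative and 3 passed in at least 1, those of Per1 in both double KO comparisons and of Bhlhe41 in double KO against SMRT KO. Clock genes called in double KO against control numbered 0 with all mice, 0 to 1 without 1 mouse, and 1 with array weights and among genes with a mean of at least 6. In double KO against SMRT KO they numbered 0 to 1 without 1 mouse and 1 in the other alternatives. The other clock genes called in these comparisons numbered 0 to 1 without 1 mouse. Called among all genes were 61 to 179 (double KO against control), 0 to 23 (SMRT KO against control) and 101 to 234 (double KO against SMRT KO) without 1 mouse, and 109, 0 and 124 with only the compared groups in the fit, against 187, 1 and 263. Array weights gave 285 in double KO against control, and a mean of at least 6 gave 2 in SMRT KO against control. With the replicate number as a block, 2 genes passed in SMRT KO against control, Per1 kept its call in double KO against SMRT KO, and Insig2 and Elovl3 lost theirs; 4 of 9 mice correlated best with their own number. The sign of r with Arntl turned without control replicate 2 and SMRT KO replicate 3 for Nr1d2 (0.13), Per3 (0.22) and Cry1 (0.24). Fits without 1 mouse have fewer mice, and the cause of other changes was not tested. With 3 mice per group, for Nr1d1 a 1.5-fold difference lay inside the 95% interval of each comparison.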
